A study of Mus musculus with 11 samples.

Results

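Mouse cones, the photoreceptors of daylight and colour vision, carry their own set of opsins and signalling proteins. The 10 genes described here code for the cone opsins (Opn1sw and Opn1mw) and for the cone forms of transducin (Gnat2 and Gngt2), phosphodiesterase (Pde6c and Pde6h), the cGMP-gated channel (Cnga3 and Cngb3), arrestin (Arr3) and a guanylate cyclase activator (Guca1a). They were chosen by name from the 25311 genes of the count matrix, and all 10 were found. Their levels were followed across cones, rods and inner retinal classes in all 4 groups of mice.

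All animals were C57BL/6J mouse pups whose retinas were taken at postnatal day 10 (P10), freed of the anterior segment and pigment epithelium and dissociated with papain. Single cells were captured with inDrop v3, a droplet assay in which a random tag, the unique molecular identifier (UMI), marks each captured RNA molecule. Control pups (n = 3) had received PBS, and Phase I ROP pups (n = 3) had received streptozotocin (STZ), a toxin of pancreatic beta cells that makes pups hyperglycaemic and serves as a model of the early phase of retinopathy of prematurity. The ω-3 pups (n = 2) and the ω-6 pups (n = 3) had also received STZ, and differed in the long-chain polyunsaturated fatty acid diet of the dams that nursed them. Control and Phase I ROP pups were littermates, and the diet pups were littermates divided between cages, so that only Phase I ROP with control and ω-6 with ω-3 were compared by a test. The labels name no transgene, and each library came from 1 mouse.

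In a cone in the dark, cGMP keeps the Cnga3 and Cngb3 channel open. A photon activates the opsin, the opsin activates transducin, and transducin releases the catalytic subunit Pde6c from its inhibitory subunit Pde6h, so that cGMP falls and the channel closes. Arr3 then silences the opsin, and Guca1a, the calcium sensor GCAP1, speeds the resynthesis of cGMP. Mouse cones lie in a dorsoventral gradient, with the medium-wavelength opsin Opn1mw strongest dorsally and the short-wavelength opsin Opn1sw ventrally, and many cones hold both. At P10 the eyes of mice are still closed and photoreceptors are still maturing.

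The matrix held 20067 cells, of which 20033 had more than 300 genes. UMIs per mouse ran from 2563064 to 6516478. Clustering gave 25 clusters, of which 1 was named cones from Opn1sw, Arr3 and the other cone markers, with 1126 cells. The members themselves lead this cluster, so the contrast of cones with other cells is a description of how the class was built. The other classes tested were rods (6984 cells), bipolar cells (3596 cells), amacrine cells (3287 cells) and Müller glia (1425 cells). The 3 control libraries stood apart from all 8 STZ libraries. Rn7sk, a nuclear non-coding RNA, lay at 193 to 290 CPM (UMIs per 1000000 UMIs) in the controls and at 1.15 to 16.2 in the STZ mice, and Fosb, an immediate early gene, at 0.390 to 0.890 against 116 to 231 CPM. STZ treatment and the preparation of the control libraries cannot be told apart. Of 18842 cell barcodes, 1154 were found in more than 1 library. Without the 2345 cells that carried them, the number of members called stayed the same over the whole retina and in every class, although over the whole retina Gngt2 took the place of Cnga3.

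The opsin genes and Guca1a are shown by the 250 bases before their RefSeq start site in GRCm38.p6, because in cones Opn1mw and Guca1a were called lower in Phase I ROP and Opn1sw was not. Opn1sw lies on chromosome 6 (chr6:29376671-29388468, minus strand), with its window at chr6:29380514-29380763, inside the annotated span of the gene. Opn1mw lies on the X chromosome (chrX:74127464-74150760, plus strand), with its window at chrX:74127216-74127465. Guca1a lies on chromosome 17 (chr17:47394558-47400584, minus strand), with its window at chr17:47400607-47400856. Each window reads 5′ to 3′ toward the start site, and capitals mark TAATCC, the core letters bound by the photoreceptor factor CRX, or AGGTCA, the core letters of nuclear receptor sites, on either strand (GGATTA and TGACCT in reverse).
Opn1sw: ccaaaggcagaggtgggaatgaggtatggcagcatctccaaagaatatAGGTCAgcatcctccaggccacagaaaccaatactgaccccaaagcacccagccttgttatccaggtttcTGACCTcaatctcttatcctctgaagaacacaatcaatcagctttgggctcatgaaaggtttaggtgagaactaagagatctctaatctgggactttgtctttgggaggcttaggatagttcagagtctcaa
Opn1mw: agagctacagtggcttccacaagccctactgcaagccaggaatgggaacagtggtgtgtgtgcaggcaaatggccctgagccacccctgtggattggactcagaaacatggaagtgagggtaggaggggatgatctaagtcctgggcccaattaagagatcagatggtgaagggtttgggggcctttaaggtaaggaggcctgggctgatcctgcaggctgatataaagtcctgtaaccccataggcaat
Guca1a: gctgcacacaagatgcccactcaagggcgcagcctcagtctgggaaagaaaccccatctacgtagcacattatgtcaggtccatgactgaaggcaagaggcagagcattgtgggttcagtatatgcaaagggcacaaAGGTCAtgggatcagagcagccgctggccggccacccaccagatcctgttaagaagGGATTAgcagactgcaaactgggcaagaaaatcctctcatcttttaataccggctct
Windows were given for 7 of the 10 members. TAATCC was found in Guca1a and Gnat2, against 6.25% of all 32851 windows. All 250 bases of the Gnat2 window lie in annotated exon sequence of Gnat2 itself. AGGTCA was found in Opn1sw, at 2 places, and in Guca1a, against 14% of all windows. The windows of Opn1mw, Arr3, Pde6h and Cnga3 held neither set of letters. A match is a description of the letters only.

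Over all cells of a mouse, 6 of the 10 genes were higher in Phase I ROP than in control and none was lower. This share has to be read against a table in which 24.7% of 15964 tested genes were called higher, 23.4% lower and 48.1% in either direction (edgeR's quasi-likelihood test, Benjamini-Hochberg adjusted p under 0.05). The members' median log2 fold change was 0.85, and that of all tested genes was 0.00. The 6 genes were Opn1sw, Arr3, Pde6c, Pde6h, Cngb3 and Cnga3. In such whole-retina sums, fewer cells of a type and less RNA per cell cannot be told apart.

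Opn1sw, the short-wavelength opsin, stood at 102, 114 and 160 CPM in the controls and at 455, 531 and 579 CPM in the Phase I ROP mice. Every Phase I ROP mouse was above every control. The log2 fold change was 1.78 ± 0.17 (SE; adjusted p = 1.6e-05), the largest among the members. Opn1mw, the medium-wavelength opsin, read 59.3, 17.9 and 105 CPM in the controls against 74.1, 149 and 127 CPM. Here control 2 was lowest, control 3 lay above 1 Phase I ROP mouse, and the difference was not called (log2 fold change 0.63 ± 0.43, adjusted p = 0.24). Without control 3 it was 1.33 and was called.

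Gnat2, the transducin alpha subunit (chr3:108092789-108101432), read 58.2, 52.6 and 90.2 CPM in the controls and 81.0, 121 and 143 CPM in Phase I ROP (log2 fold change 0.50 ± 0.23, adjusted p = 0.091). The groups overlapped by 1 mouse. The call was reached without Phase I ROP 1 (0.68, adjusted p = 0.0323) and with a replicate block (0.51, adjusted p = 0.0142). Gngt2, the gamma subunit (chr11:95837216-95845734), was the only member with a negative fold change, from 182, 119 and 218 CPM to 134, 177 and 126 CPM (log2 fold change -0.53 ± 0.20, adjusted p = 0.051). Gngt2 crossed the threshold under DESeq2, median-of-ratios scaling, thinning to equal depth, removal of likely doublets, without the cells of shared barcodes, and without control 2, where it was -0.74. The annotated span of Gngt2, introns included, shares 5261 bases with that of Abi3 on the opposite strand. How much of this is exon sequence was not examined. The strand used in counting is not given in the sources used here, so reads from any shared exon sequence may not be told apart.

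Pde6c, the catalytic phosphodiesterase subunit (chr19:38132781-38183958), rose from 18.4, 17.5 and 33.2 CPM to 79.8, 80.0 and 86.6 CPM (log2 fold change 1.54 ± 0.22, adjusted p = 0.0002). The 3 Phase I ROP mice lay within a narrow band far above the controls. Pde6h, its inhibitory partner (chr6:136923832-136968865), rose from 134, 150 and 241 CPM to 307, 403 and 449 CPM (0.87 ± 0.21, adjusted p = 0.0054). Pde6h lies opposite Arhgdib over 18068 bases and Opn1sw opposite Calu over 440 bases, and the same limit holds for these pairs.

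Of the channel subunits, Cnga3 had the fewest UMIs of the set. Cnga3, which binds cGMP and forms the pore (chr1:37214434-37263384), read 7.74, 6.23 and 7.42 CPM in the controls and 10.9, 17.6 and 18.1 CPM in Phase I ROP. The log2 fold change of 0.84 ± 0.28 passed narrowly (adjusted p = 0.029), and the call was lost under DESeq2, under thinning, without the cells of shared barcodes, and without control 1, control 2, Phase I ROP 2 or Phase I ROP 3. Cngb3, the modulatory subunit (chr4:19280850-19510623), rose from 14.0, 16.8 and 21.7 CPM to 36.3, 45.3 and 51.6 CPM (1.06 ± 0.21, adjusted p = 0.0016). Of the genes that end the response, Arr3 (chrX:100605497-100618493) rose from 9.58, 14.0 and 22.9 CPM to 50.8, 66.7 and 54.5 CPM (1.59 ± 0.26, adjusted p = 0.00046). Guca1a was scattered, with 21.4, 15.6 and 65.0 CPM in the controls and 36.9, 92.5 and 74.3 CPM in Phase I ROP (0.67 ± 0.44, adjusted p = 0.23). Without control 3, Guca1a was called with 1.61 and Gnat2 with 0.80, and 9 members in all were called. The share of all genes called in that fit is not given here.

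**Figure D1:**
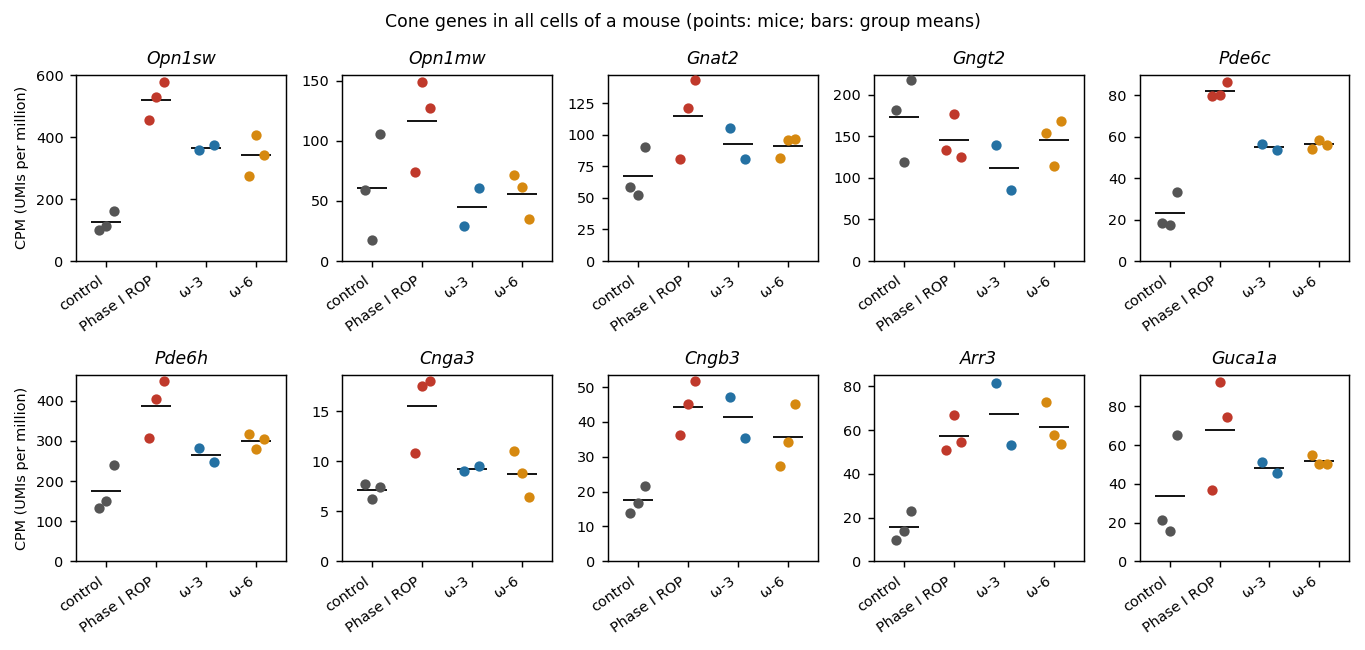
CPM over all cells of each mouse (linear vertical axes that start at 0) for the 10 genes in the 4 groups. Each point is 1 mouse and bars mark group means. Opn1sw, Arr3, Pde6c, Pde6h, Cngb3 and Cnga3 show no overlap between control and Phase I ROP mice, while Opn1mw, Gnat2, Gngt2 and Guca1a do. The share of all genes without overlap was not counted.

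In the clustering that used the members, cones made up a larger share of the Phase I ROP cells. The class held 14, 13 and 46 cells in the controls, or 1.51, 1.65 and 3.08% of a mouse's cells. It held 113, 96 and 134 cells in Phase I ROP, or 5.54, 6.87 and 5.80%. The means were 2.08 ± 0.868% and 6.07 ± 0.706% (SD, n = 3 each), and the groups did not overlap (exact two-sided permutation p = 0.1, the smallest that 3 against 3 mice allow; 0.164 adjusted over 18 tests). Shares of captured cells depend on which cells survive dissociation and pass the clustering, and the control class rests on 73 cells. With the members left out of the clustering, the cone cluster held 52, 39 and 89 of the 925, 787 and 1493 control cells. It held 107, 93 and 120 of the 2039, 1397 and 2312 Phase I ROP cells, and these shares overlapped between the groups.

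Among the photoreceptor genes outside the set, whole-retina levels moved the same way. The rod counterparts of the members reported here (Gnat1, Gngt1, Pde6a, Pde6b, Pde6g, Cnga1, Cngb1, Sag and Guca1b) were each called higher in Phase I ROP. The rod class held 135, 75 and 284 of the 925, 787 and 1493 control cells. It held 838, 523 and 1114 of the 2039, 1397 and 2312 Phase I ROP cells, a larger share in every mouse. More captured rods and more RNA per rod cannot be told apart in these sums. Of 16 other cascade and photoreceptor membrane genes 14 were called higher, as were 10 of 12 regulators of cone and photoreceptor fate. These lists were read against the same 24.7% of all genes. Whether the members, with 6 of 10, differed from these lists was not tested.

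Within the cone class the picture turned around. Of the 10 members, 5 were lower in CPM in Phase I ROP than in control and none was higher, where 7.9% of 3125 tested genes were called lower and 18.8% in either direction. The 5 were Gngt2, Gnat2, Guca1a, Opn1mw and Pde6h. The members' median log2 fold change was -0.73, against 0.10 for all tested genes. Opn1sw, Arr3 and Pde6c had small negative values and Cnga3 and Cngb3 positive ones, and none of these passed.

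Gngt2 had the largest difference. It stood at 5508, 4610 and 5079 CPM in the control cones and at 1452, 1646 and 1359 CPM in the Phase I ROP cones. All control values lay far above all Phase I ROP values (log2 fold change -1.94 ± 0.25, adjusted p = 2.1e-05). Its partner Gnat2 fell from 3672, 2656 and 2998 CPM to 1040, 1213 and 1638 CPM (-1.43 ± 0.24, adjusted p = 0.0004). Both transducin subunits were thus lower in the cones of every Phase I ROP mouse than in those of any control. In both genes the call held without any 1 mouse.

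The opsins differed from each other. Opn1sw read 7371, 7552 and 5737 CPM in control cones and 6528, 5878 and 7023 CPM in Phase I ROP cones, which overlap (-0.24 ± 0.28, adjusted p = 0.58). Opn1mw read 4293, 1198 and 3742 CPM against 1072, 1646 and 1540 CPM. Control 2 lay among the Phase I ROP mice, while controls 1 and 3 were above all of them. The difference was called (-1.31 ± 0.32, adjusted p = 0.0068), but not without control 3 (adjusted p = 0.091) or without Phase I ROP 3 (-1.27, adjusted p = 0.0659).

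Pde6h, the inhibitory subunit, fell from 9153, 8646 and 8368 CPM to 4306, 4293 and 5385 CPM (-1.07 ± 0.28, adjusted p = 0.012). The catalytic subunit Pde6c read 1269, 1146 and 1165 CPM against 1149, 865 and 1033 CPM, overlapped by 1 mouse and was not called (-0.40 ± 0.22, adjusted p = 0.2). Guca1a fell from 1566, 990 and 2351 CPM to 520, 978 and 844 CPM, with control 2 only just above Phase I ROP 2 (-1.31 ± 0.27, adjusted p = 0.0021). Guca1a lost its call without control 3 (-0.76, adjusted p = 0.106). Pde6h lost its call without control 3 (-0.98, adjusted p = 0.069), without Phase I ROP 2 (-0.90, adjusted p = 0.0531) and without Phase I ROP 3 (-1.09, adjusted p = 0.0552), and likewise with no low-count filter (adjusted p = 0.0505) or in thinned sums (adjusted p = 0.1). The number of members called was 2 without control 3 and 3 without Phase I ROP 3, and the shares of all genes called in those fits are not given here.

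Arr3 overlapped between the groups in cones, with 621, 938 and 798 CPM in control and 701, 766 and 649 CPM in Phase I ROP (-0.34 ± 0.22, adjusted p = 0.28). The channel genes were sparse in the few control cones. Cnga3 had 1, 5 and 4 UMIs in control cones and 20, 30 and 51 UMIs in Phase I ROP cones (1.01 ± 0.55, adjusted p = 0.19). Cngb3 had 6, 13 and 12 UMIs against 40, 59 and 96 UMIs (0.31 ± 0.37, adjusted p = 0.6). Neither channel gene was called, and the size of change that could be detected at this depth was not estimated.

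**Figure D2:**
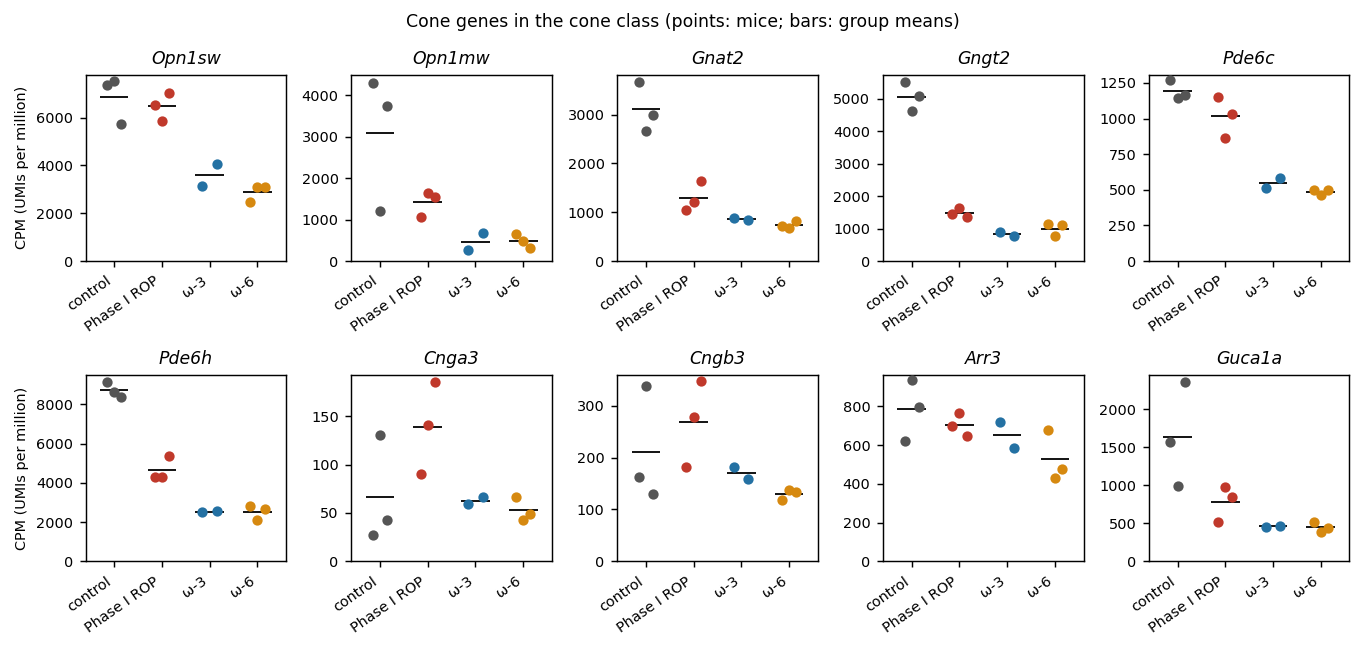
CPM within the cone class of each mouse (linear vertical axes that start at 0) for the 10 genes in the 4 groups. Each point is 1 mouse and bars mark group means. Gngt2, Gnat2, Pde6h and Guca1a lie lower in every Phase I ROP mouse than in any control, and the ω-3 and ω-6 mice lie lower still for most genes. The share of all genes that separate in this way was not counted.

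The same genes were also counted as UMIs per cone rather than CPM. Summed over the 10 members, a control cone held 89.0, 83.3 and 61.3 UMIs in the 3 mice (77.9 ± 14.6, SD), and a Phase I ROP cone held 33.3, 39.2 and 41.2 UMIs (37.9 ± 4.09). The groups did not overlap (exact two-sided permutation p = 0.1, the smallest possible). Total UMIs per cone were 2646, 2954 and 2016 in control and 1956, 2215 and 2059 in Phase I ROP, which overlapped between the groups. Gngt2 went from a mean of 12.8 to 3.10 UMIs per cone, Gnat2 from 7.87 to 2.70 and Opn1mw from 7.48 to 2.97. Opn1sw went from 17.8 to 13.4, Pde6c from 3.03 to 2.10, and Cngb3 from 0.563 to 0.562.

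Rod genes were also counted in the cone class. Of the rod counterparts reported here 4 were called higher in cones, where 10.9% of 3125 tested genes were called higher. The 4 were Gnat1, Pde6b, Cnga1 and Cngb1. In this order, they had 1, 1, 0 and 1 UMIs in all control cones and 242, 207, 180 and 127 in all Phase I ROP cones. They passed the low-count filter only through the Phase I ROP mice, so their calls are not read as differences. Another 5 were not called, with log2 fold changes of -0.48 for Sag (rod arrestin), -0.19 for Gngt1, 0.65 for Pde6a, -0.30 for Pde6g and 0.62 for Guca1b. Nrl, the rod-fate factor, had 1 UMI in all control cones together and 395 in all Phase I ROP cones. The part of rod RNA in the lower CPM of the cone genes was not tested.

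Other photoreceptor genes in cones did not share the members' direction. Of 16 other cascade and membrane genes 14 were tested, of which 6 were called higher and 1 was called lower. Of all 3125 genes tested in cones, 10.9% were called higher and 7.9% lower. The higher ones included Gnb1 (log2 fold change 3.10), a transducin beta subunit of rods, Kcnv2 (2.63), Grk1 (1.40), the opsin kinase, Rgs9bp (1.17), and Slc24a1, with 0 UMIs in all control cones and 189 in all Phase I ROP cones. Slc24a1 passed the low-count filter only through the Phase I ROP mice, so its call is not read as a difference. The lower one was Rcvrn, the calcium sensor recoverin (-0.84, adjusted p = 0.013). Of 12 regulators 10 were tested and 7 were called higher, against the same 10.9% of all genes. They included Thrb, the thyroid hormone receptor of medium-wavelength cones (1.13, adjusted p = 0.038), Crx (1.17, adjusted p = 0.0024), Otx2 (1.55, adjusted p = 0.017), Rora (0.96, adjusted p = 0.029) and Neurod1 (2.43, adjusted p = 3.2e-06). Nr2e3, a rod-fate factor, had 5 UMIs in all control cones and 568 in all Phase I ROP cones. It passed the low-count filter only through the Phase I ROP mice and is likewise not read as a difference. Rxrg, a nuclear receptor that holds back Opn1sw in dorsal cones, was not called (-0.84, adjusted p = 0.23).

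**Figure D3:**
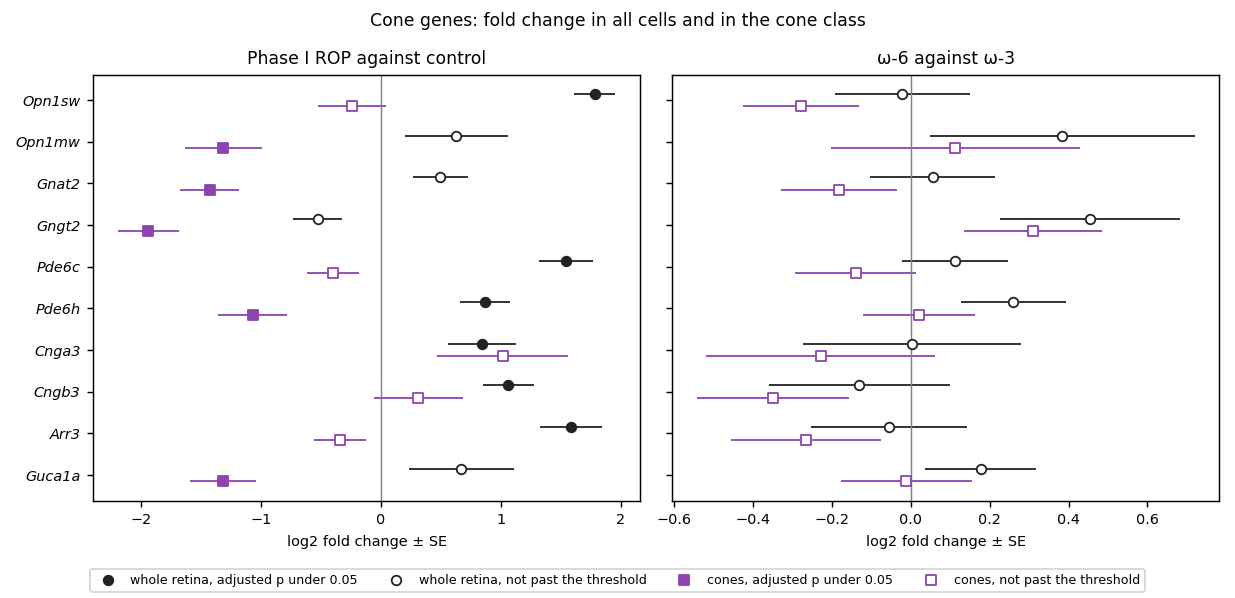
Log2 fold change of Phase I ROP against control (left) and of ω-6 against ω-3 (right) for each of the 10 genes over the whole retina (black circles) and within cones (purple squares), with bars of 1 SE and filled symbols for an adjusted p under 0.05. In Phase I ROP most genes lie above 0 over the whole retina and below 0 within cones, and no diet symbol is filled.

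The direction in cones depended on how the class was delimited. The 10 genes drive the cone cluster, and 9 of them were among the genes used for clustering. With the members left out of the clustering, the cone cluster held 1456 cells, of which 861 were cones of the first clustering, 444 came from an unnamed cluster led by Zfp990 and 105 from the rods. The groups were recomposed unequally, with control going from 73 to 180 cells (25 left and 132 joined) and Phase I ROP from 343 to 320 cells (94 left and 71 joined). In that mixed cluster 6 members were called, 5 of them higher in Phase I ROP, where 29.6% of 3576 genes were called, 15.7% higher and 14% lower. Opn1sw was then at 1.03 (adjusted p = 0.0103), Arr3 at 0.84 (adjusted p = 0.0207), Pde6c at 0.87 (adjusted p = 0.0102), Cnga3 at 2.16 (adjusted p = 0.0139) and Cngb3 at 1.45 (adjusted p = 0.0143). Gngt2 was lower here too, while Gnat2 (-0.28, adjusted p = 0.42), Opn1mw (-0.19, adjusted p = 0.699), Guca1a (-0.06, adjusted p = 0.928) and Pde6h (0.13) were not called. Gngt2 was the only member lower under both clusterings.

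The balance of the opsins was examined mouse by mouse. As a log2 ratio of Opn1sw to Opn1mw UMIs in cones, the controls gave 0.78, 2.66 and 0.62 and the Phase I ROP mice 2.61, 1.84 and 2.19. The ω-3 mice gave 3.60 and 2.59, and the ω-6 mice 1.91, 2.67 and 3.24. Control 2 lay above all 3 Phase I ROP mice, so the groups overlapped (2.21 ± 0.385 against 1.35 ± 1.13, exact two-sided permutation p = 0.4). In all 11 mice Opn1sw UMIs outnumbered Opn1mw UMIs. Opn1mw made up 13.7 to 39.5% of the opsin UMIs of control cones, 14.1 to 21.9% in Phase I ROP, 7.61 and 14.3% in the ω-3 mice, and 9.55 to 21.0% in the ω-6 mice.

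Cells with UMIs of both opsins were common. Of 73 control cones, 27 held Opn1sw alone, 10 Opn1mw alone, 27 both and 9 neither. Of 343 Phase I ROP cones the numbers were 144, 33, 126 and 40 in the same order. They were 159, 14, 91 and 32 of 296 ω-3 cones, and 179, 43, 134 and 58 of 414 ω-6 cones. After each cone was thinned to 1000 UMIs, 22 of 63 control cones and 92 of 271 Phase I ROP cones still held both. In the diet groups 44 of 279 ω-3 cones and 67 of 402 ω-6 cones did so. A UMI of an opsin in a cone may also come from free RNA, which these counts do not separate.

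**Figure D4:**
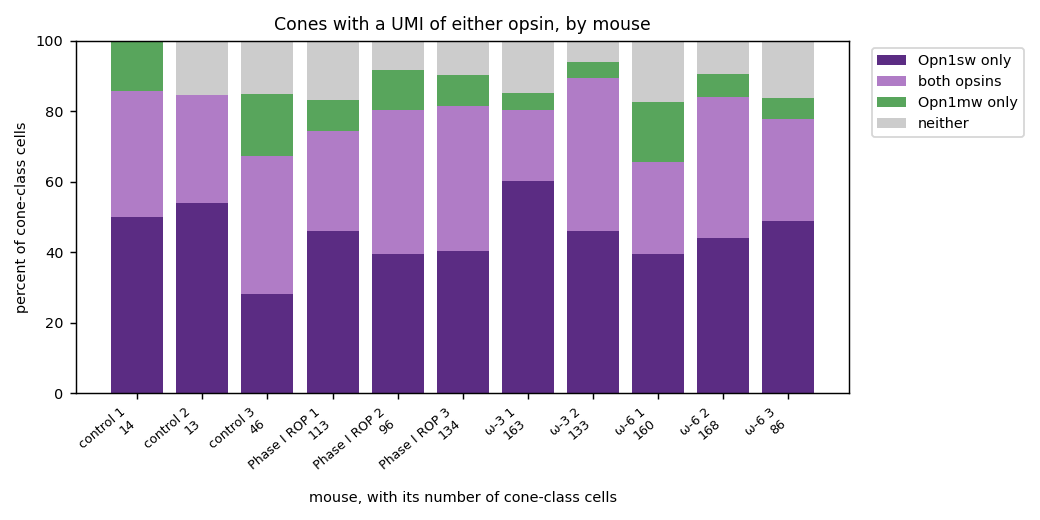
Percent of each mouse's cones, at their full depth, that hold a UMI of Opn1sw alone, Opn1mw alone, both or neither. Each bar is 1 mouse, with its number of cones below, and cones with Opn1sw alone or with both opsins make up most of each bar.

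Outside the cones, some members kept in Phase I ROP the ratios they had in cones and others did not. For every 100 Opn1sw UMIs, control cones held 77.8 Gngt2 UMIs, and control cells outside the class held 5239, a figure that rests on 13 Opn1sw UMIs. In Phase I ROP the ratio went from 22.6 Gngt2 UMIs in cones to 113 outside, and that of Cngb3 from 4.21 to 87.0. Opn1mw, with 21.9 in cones and 22.4 outside, Arr3, with 10.7 and 12.6, and Pde6c, with 15.6 and 18.9, were close to their cone ratios in Phase I ROP. Of their UMIs outside cones there, 63.2, 65.6 and 70.8% in this order sat in 16 cells that each held 5 or more members. In control Opn1mw went from 50.4 in cones to 76.9 outside, Arr3 from 12.1 to 46.2 and Pde6c from 18.2 to 61.5. These control ratios outside cones rest on the same 13 Opn1sw UMIs. No test was made of these pooled ratios. In numbers, the 3132 control cells outside the class held 13 Opn1sw, 681 Gngt2, 123 Cngb3, 112 Pde6h, 81 Gnat2, 52 Cnga3 and 3 Guca1a UMIs. Over the 10 genes, 18.9 ± 5.51% of the controls' member UMIs lay outside the cone class, against 10.0 ± 2.69% in Phase I ROP (exact two-sided permutation p = 0.1). Opn1sw went the other way, with 1.08 ± 0.398% of its UMIs outside cones in control and 5.43 ± 2.42% in Phase I ROP.

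Gngt2 was the member with most UMIs outside cones, in rods and bipolar cells. In rods it stood at 529, 203 and 259 CPM in control and 66.7, 30.6 and 10.8 CPM in Phase I ROP. The groups were far apart (log2 fold change -3.41 ± 0.43, adjusted p = 4.3e-06). Only Gngt2 and Cngb3 could be tested in rods, where 34% of 6308 genes were called in either direction and 15.6% were lower, and Cngb3 was not called (-0.39 ± 0.60, adjusted p = 0.64). A Gngt2 UMI was seen in 74 of 494 control rods (exact 95% interval 11.9 to 18.4%) and in 50 of 2475 Phase I ROP rods (2.02%, upper bound 2.65%), at median depths of 955 and 821 UMIs. Müller glia, which should lack it, gave 2 of 263 control cells (0.760%, 0.0922 to 2.72) and 8 of 377 Phase I ROP cells (2.12%), at median depths of 2174 and 1680 UMIs. These intervals cover counting error only. With cells pooled over mice, the share in control rods was thus above that in Müller glia. In Phase I ROP the shares of rods and glia were close, but the rods were shallower, so they are not ranked.

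In bipolar cells, where 21.3% of 10019 genes were called higher, 23.9% lower and 45.3% in either direction, Gngt2, Opn1sw and Pde6h were called of 4 tested members. Gngt2 had 131, 83 and 139 UMIs in control and 40, 70 and 46 UMIs in Phase I ROP (-0.94 ± 0.26, adjusted p = 0.0092). Its call was lost without Phase I ROP 1 (-0.77, adjusted p = 0.0556) or Phase I ROP 3 (-0.77, adjusted p = 0.0625). A Gngt2 UMI was seen in 207 of 1009 control cells (20.5%) and 94 of 967 Phase I ROP cells (9.72%), at median depths of 2514 and 1746 UMIs. Among control bipolar cells Gngt2 was concentrated in the cluster led by Grik1, an OFF bipolar marker, at 312 CPM, against 76.2 CPM in the other bipolar cluster. As Abi3 overlaps Gngt2, part of these reads may belong to it, and this was not tested.

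Opn1sw had 0, 0 and 2 UMIs in control bipolar cells and 18, 46 and 61 UMIs in those of Phase I ROP. It passed the low-count filter only through the Phase I ROP mice, so its call is not read as a difference. Pde6h had 9, 10 and 6 UMIs against 13, 66 and 48 UMIs (2.55 ± 0.53, adjusted p = 0.0016), and Gnat2 was not called (0.63 ± 0.37, adjusted p = 0.17). Of the Phase I ROP UMIs in bipolar cells, 97 of 125 for Opn1sw and 95 of 127 for Pde6h sat in 9 cells that each held 5 or more members. Outside the cone class 42 of 18907 cells held 5 or more members, 0 of them among 3132 control cells. Among cones 84.1% of cells did. Those 42 cells had a median of 5398.5 UMIs, against 1470 in other cells outside cones, 31 of them were among the 5% with the highest doublet scores, and they held 62.5% of the Opn1sw UMIs outside cones but 6.85% of the Gngt2 UMIs. Without them Opn1sw had 16, 9 and 3 UMIs and Pde6h 12, 12 and 8 UMIs in Phase I ROP bipolar cells, neither was tested or called, and Gngt2 was the 1 member still called.

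Cngb3 was the member with most UMIs in the amacrine cells of control and Phase I ROP mice. It read 17.8, 10.7 and 45.6 CPM in the controls and 44.5, 53.1 and 40.7 CPM in Phase I ROP, where control 3 lay among the treated mice (0.58 ± 0.39, adjusted p = 0.26). Pde6h was the only other member tested there (0.49 ± 0.41, adjusted p = 0.37), so that 0 of 2 were called, against 38.8% of 11315 genes. Without control 3, both were called, Cngb3 at 1.34 (adjusted p = 0.00799), and the share of all genes called in that fit is not given here. Over all mice, 424 Cngb3 UMIs lay in the 1337 cells of the amacrine cluster led by C1ql1, Cbln2 and Syt7 (64.3 CPM), and 32 lay in the 1356 cells of that led by Ebf3 and Prdm13 (9.34 CPM). The 42 cells with 5 or more members held 2.80% of the Cngb3 UMIs outside cones. Cngb3 overlaps the pseudogene Gm11877 on the same strand over 852 bases. In Müller glia Cngb3 had 0 UMIs in all 6 control and Phase I ROP mice, and 0 of the 10 members had enough counts to be tested there, where 10.8% of 4855 genes were called, 5.81% higher and 5.03% lower.

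**Figure D5:**
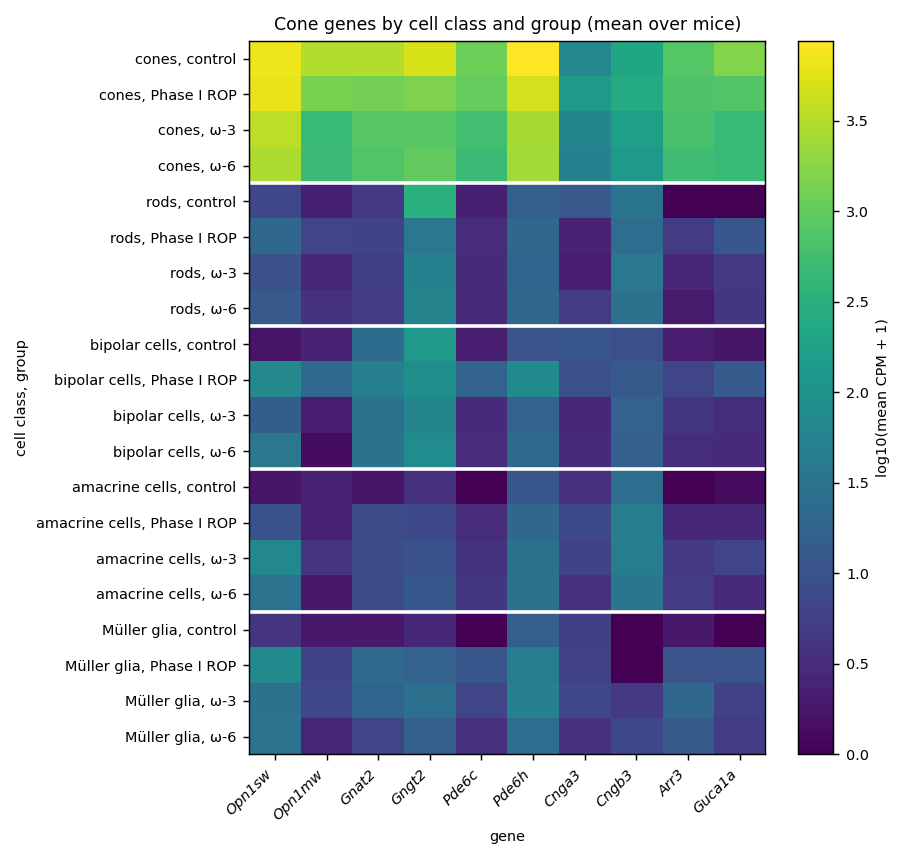
Mean CPM over the mice of each class and group (vertical) for the 10 genes (horizontal), with colour on the scale of log10 of the mean plus 1. Each gene is highest in the cone class, which the genes themselves define, and Gngt2 in control rods and bipolar cells and Cngb3 in amacrine cells stand out among the other classes.

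The ω-6 and ω-3 diets were compared in STZ-treated mice. No member was called in any class or over the whole retina by edgeR, none by DESeq2, and none reached an unadjusted p under 0.05. The background was as low, at 0% of 18821 genes over the whole retina and 0% of 9160 genes in cones and 0.0181% of 11033 genes in rods, although 1328 genes over the whole retina and 736 in cones had an unadjusted p under 0.05. Over the whole retina the members' log2 fold changes ran from -0.13 ± 0.23 for Cngb3 (adjusted p = 0.89) to 0.46 ± 0.23 for Gngt2 (adjusted p = 0.68), with a median of 0.08. In cones they ran from -0.35 ± 0.19 for Cngb3 (adjusted p = 0.68) to 0.31 ± 0.18 for Gngt2 (adjusted p = 0.69), with a median of -0.16. With 2 mice on the ω-3 diet, an exact test cannot go below p = 0.2.

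By gene, Opn1sw stood at 359 and 374 CPM over the whole retina on the ω-3 diet and at 276, 406 and 343 CPM on the ω-6 diet. Opn1mw read 29.4 and 60.6 CPM against 71.4, 61.6 and 35.1 CPM. Both opsins overlapped between the diets over the whole retina. Gngt2 read 139 and 85.9 CPM against 154, 114 and 168 CPM, and Arr3 81.6 and 53.2 CPM against 72.6, 57.8 and 53.5 CPM. Pde6c was even across all 5 mice, at 56.4 and 53.7 CPM on ω-3 and at 54.1, 58.6 and 56.2 CPM on ω-6. Summed, the members stood at 1103 ± 82.1 CPM on ω-3 and 1149 ± 24.4 CPM on ω-6 (exact two-sided permutation p = 0.6). Cones were 6.82 and 5.20% of the ω-3 cells and 6.11, 7.75 and 6.40% of the ω-6 cells (p = 0.6, exact two-sided permutation test).

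Within cones, Opn1sw read 3128 and 4058 CPM on ω-3 and 2473, 3097 and 3085 CPM on ω-6, Gnat2 891 and 838 against 718, 684 and 828 CPM, and Pde6c 514 and 586 against 497, 462 and 502 CPM. For these genes and for Cngb3, at 182 and 159 against 119, 138 and 133 CPM, every ω-6 mouse lay below both ω-3 mice, and none of them was called. The other 6 members overlapped between the diets in cones. How many of all genes have mice that separate between the diets was not counted, so this number is not read as a result about the members.

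Summed over the 10 genes, the members' CPM in cones of the diet mice was low, at 10184 on ω-3 and 9277 on ω-6, while Phase I ROP cones stood at 18249 ± 1555 and control cones at 30752 ± 2735. The litters differ, so these values are set side by side and were not tested. Per cone, the members' UMIs were 34.9 and 46.5 on ω-3 and 31.9, 38.6 and 52.1 on ω-6, close to the 33.3 to 41.2 of Phase I ROP. The totals per cone were larger in the diet mice, from 3308 to 5423 UMIs, and Gnat1, the rod transducin, had 557 UMIs in all ω-3 cones and 712 in all ω-6 cones.

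Genes that followed the members across cells were sought by Pearson's r with the members' mean log2 level over the 55 sums of class and mouse, among 17332 genes. The 10 most alike were Cckbr (0.939), Gckr (0.939), Abi3 (0.937), Gm42697 (0.935), Kcne2 (0.931), Gpat3 (0.929), Otop3 (0.926), Agr2 (0.922), Krt18 (0.911) and Pgc (0.888). The 55 sums share mice and libraries, and cones alone set most of the spread. Abi3 is the gene that overlaps Gngt2.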

How the data were processed

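Single-cell RNA-seq of 11 mouse retinas was used. Per the study's methods, the authors identified barcodes and UMIs of inDrop v3 reads with umis in bcbio-nextgen, dropped barcodes with few reads and assigned reads to transcripts with Rapmap, on GRCm38.p6 per the labels. The authors deposited these UMI counts, whole numbers for each cell and gene, without normalization. No per-sample column was left unused. Groups came from the labels.

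Cells with more than 300 genes were clustered with Seurat 5.3.0 (2000 variable genes, 75 principal components, resolution 0.2), and clusters were named from canonical markers. UMIs were summed per mouse over all cells and per class with at least 10 cells per mouse, and tested with edgeR 4.0.16 in R 4.3.3 (quasi-likelihood test, TMM scaling, the default low-count filter, Benjamini-Hochberg adjustment over all genes tested, threshold 0.05). CPM are UMIs per 1000000 UMIs of a mouse or class, and standard errors are those of log2 fold changes. Summed members, shares and ratios were compared by exact two-sided permutation tests over mice (scipy 1.17.1). The edgeR step was tested on simulated data. Each replicate was a separate mouse.

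The 10 members and the other gene lists were chosen with earlier results of these data known. All members are named in every comparison, with the rod counterpart of each, list genes past the threshold in cones and the 10 genes most like the members. Some genes of these lists and of the annotation are not reported here. Other genes were named after their values were seen. Coordinates came from GENCODE on GRCm38, and upstream windows from RefSeq on GRCm38.p6. The fits were repeated with DESeq2 1.42.0, with scaling by median of ratios, without the low-count filter, with 1 fit of all 4 groups, with a replicate block, without each mouse in turn, on cells with more than 500 genes, after removal of the top 5% of Scrublet scores (doublets were otherwise kept, since Scrublet itself marked 0.359% of cells), with clustering without the members and on sums thinned to equal depth. Leaving out cells outside cones with 5 or more members, and cells whose barcode occurs in more than 1 library, was added after seeing the data.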

Additional observations from a re-analysis of the deposited data

How the results depend on the processing

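The number of members called over the whole retina in Phase I ROP stayed within 1.5 times of the reported 6 under every alternative run. In cones it ran from 2 to 5 when 1 mouse was left out. It was 6, of which 5 were higher, when the members were left out of the clustering, where 29.6% of 3576 genes were called. Cells both left and joined the cone cluster there, and their part in this count was not tested. That clustering gave 5 called members in rods, all lower, where 31.5% of 6379 genes were called and 15.6% were lower. In cones it gave 0.492 (log2) for the summed members, and Opn1sw 1.03, Arr3 0.84, Pde6c 0.87 and Pde6h 0.13. All were positive where the reported values were not. Opn1sw in cones was 0.047 with no filter on low counts and 0.040 in thinned sums. In bipolar cells 6 members were called with no filter, 5 with all 4 groups in 1 fit and 2 to 5 when 1 mouse was left out. The same settings gave 2, then 1, then 0 to 2 members in amacrine cells. With no filter 1 member was called in Müller glia, and 1 in amacrine cells between the diets. Leaving out cells outside cones that held 5 or more members left 1 called in bipolar cells and turned Gnat2 there to -0.083. The amacrine level relative to the whole retina in Phase I ROP was -0.23 without high Scrublet scores and -0.030 to 0.37 without 1 mouse.

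Between the diets several small differences changed sign, none of them called. Without 1 mouse they ran, on the log2 scale, from -0.016 to 0.14 for the summed members over the whole retina, -0.42 to 0.66 in rods, -0.40 to 0.53 in rods relative to the retina, -0.99 to 0.021 for the opsin ratio in cones, -0.96 to 0.029 for that ratio over the retina and -0.35 to 0.072 for Cngb3 over the retina. In percentage points they ran from -0.067 to 1.56 for the cone share and from -2.95 to 1.45 for the share of member UMIs outside cones. That last share was 0.217 without high Scrublet scores and 2.68 with the members out of the clustering, which also gave the summed members in bipolar cells as -0.253, or -0.31 relative to the retina. Where no cause is given, the cause was not tested. In all, 452 values of single genes kept their direction and side of the threshold. Another 14 came to pass it and 20 came to miss it, with the direction kept. Of main comparisons 415 values were counted as the same. For numbers of members called, this means within 1.5 times of the reported number and not reversed. For exact tests it means an unchanged sign only, even where the groups came to overlap. This was so for the share of cones in Phase I ROP with the members left out of the clustering. The p of exact tests cannot go below 0.1 with 3 against 3 mice or 0.2 with 3 against 2, so they could not pass the threshold. Of main comparisons 16 values moved and 16 reversed, and of single genes 9 reversed, and these are the ones given above.

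The labels do not say that equal replicate numbers mark paired mice, and not every pair correlated, so the numbers were not used to pair mice. Deviations of same-numbered control and Phase I ROP mice correlated at -0.03, 0.149 and 0.208, and those of the diets, with 2 pairs, at 0.214 and 0.431. With the replicate number as a block, 7 members were called over the whole retina (48.8% of all genes), 5 in cones (13.7%), 1 in rods (27.3%), 3 in bipolar cells (45%) and 0 in the other classes in Phase I ROP. Between the diets the block called Opn1sw as the 1 member in bipolar cells (1.75, adjusted p = 0.0472, with 0.142% of genes called) and as the 1 member in amacrine cells (-1.24, adjusted p = 0.00843, with 0.457%). In bipolar cells Opn1sw had 14 and 15 UMIs on ω-3 and 55, 24 and 3 UMIs on ω-6. In amacrine cells 179 of its 185 UMIs on ω-3 and 129 of 145 on ω-6 sat in cells with 5 or more members. Without those cells 6 UMIs were left on ω-3 and 16 on ω-6. The control cones numbered 73, which limits precision for Cnga3 and Cngb3 above all.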
